A study of Mus musculus with 10 samples.

Results

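The UDP-glucuronosyltransferase (UGT), cytosolic sulfotransferase (SULT) and glutathione S-transferase (GST) genes of the mouse liver were examined in liver tumors and in normal liver by RNA-Seq. Members were all genes of the table whose symbol begins with Ugt1, Ugt2 or Ugt3, with Sult and a digit, or with Gst and a letter. This choice, which used no expression value, gave 49 of 16697 genes, of which 17 were UGT, 9 SULT and 23 GST genes. Of the 23 GST genes, 2 (Gstm2-ps1 and Gstp-ps) were annotated as processed pseudogenes, and Gstcd carries a GST-like domain without being a member of a GST class.

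The 10 libraries came from 3 groups, which were wild-type normal liver (NL, n = 4), tumors raised with the c-MYC oncogene and an empty pT3 plasmid (c-MYC, n = 3), and tumors raised with c-MYC together with FOXO1AAA, a FOXO1 protein mutated so that AKT cannot switch it off (c-MYC/FOXO1AAA, n = 3). Plasmids had been delivered into hepatocytes by hydrodynamic tail vein injection, which reaches only a part of these cells, and were driven by an EF1α promoter. Both tumor groups carried c-MYC, and NL carried neither transgene. The sources differ on a further oncogene, MCL1. The sample titles and extraction notes name none. The study's list of injected plasmids gives c-MYC with pT3 or with FOXO1AAA and no MCL1, and its RNA-Seq methods name c-MYC/pT3. The design text of the series and a figure legend on the control mice name c-MYC/MCL1 instead. The c-MYC group was therefore read as carrying no added MCL1. Genotype was given as WT and strain as C57BL/6 for every sample. The extraction notes, however, named FVB livers, and the study's methods and plasmid list named FVB/N mice for these groups. Neither age nor sex was given for single samples. Each library was taken as 1 mouse or tumor, which the labels do not state outright, and p-values measure the spread between these libraries.

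These enzymes carry out the conjugation step of drug and hormone metabolism. UGTs attach glucuronic acid from UDP-glucuronic acid to bilirubin, steroids, bile acids and drugs in the endoplasmic reticulum. SULTs transfer a sulfonate group from the donor PAPS to phenols, steroids and bile acids in the cytosol, and GSTs couple glutathione to electrophiles. The mature hepatocyte is known for high levels of all 3 families.

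Levels are given as FPKM (fragments per kilobase of transcript per 1000000 fragments). They rest on 1 transcript length per gene, which for some members is far below the union of all annotated exons (Sult2a8, 601 against 3284 bases). Levels of different genes and family sums thus depend on the length used. The libraries held 13.12 to 20.55 M (1000000) reads in the listed genes. The mouse Foxo1 row reached 70.1 to 95.6 FPKM in the c-MYC/FOXO1AAA libraries and 5.17 to 7.87 FPKM in the other libraries, as the labels give, whereas the mouse Myc row was lower in both tumor groups (0.561 to 1.11 FPKM) than in NL (4.17 to 22.2 FPKM). All 9 hepatocyte markers in the table were detected in NL, with a summed level of 80100 to 89300 FPKM. Their sum was 3630 to 5620 FPKM in c-MYC tumors and 891 to 1610 FPKM in c-MYC/FOXO1AAA tumors. The sum of 8 stellate cell and fibroblast markers was 84.6 to 106 FPKM in NL, 12.2 to 39.7 FPKM in c-MYC tumors and 449 to 495 FPKM in c-MYC/FOXO1AAA tumors. In bulk tissue, fewer cells of a type and less RNA per cell cannot be told apart, and the part of cell composition in the results given here was not tested.

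In normal liver the 49 genes together reached 17600 FPKM ± 216 (SD, n = 4). In c-MYC tumors they reached 1750 FPKM ± 340 (SD, n = 3), which was 9.92% of NL, and in c-MYC/FOXO1AAA tumors 701 FPKM ± 119 (SD, n = 3), which was 3.99% of NL. With all libraries set to the same FPKM total these shares were 18.8% and 8.47%, and by reads per 1000000 they were 16.7% and 8.76%. The loss was deepest in the UGT and SULT families. The UGT sum was 2960 FPKM in NL, 37.3 FPKM in c-MYC tumors and 52.1 FPKM in c-MYC/FOXO1AAA tumors, and the SULT sum was 2490, 31.6 and 26.9 FPKM in the same order. The GST sum was 12200, 1680 and 623 FPKM, so that 13.8% of the NL level was left with c-MYC and 5.12% with c-MYC/FOXO1AAA (26.2% and 10.9% with the same FPKM total). With the union of all annotated exons as length, the NL sums of UGT, SULT and GST were 2150, 844 and 6790 FPKM. By the deposited FPKM, no tumor library came near an NL library in any of the 3 sums, and the tumor groups overlapped for SULT and UGT but not for GST.

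**Figure D1:**
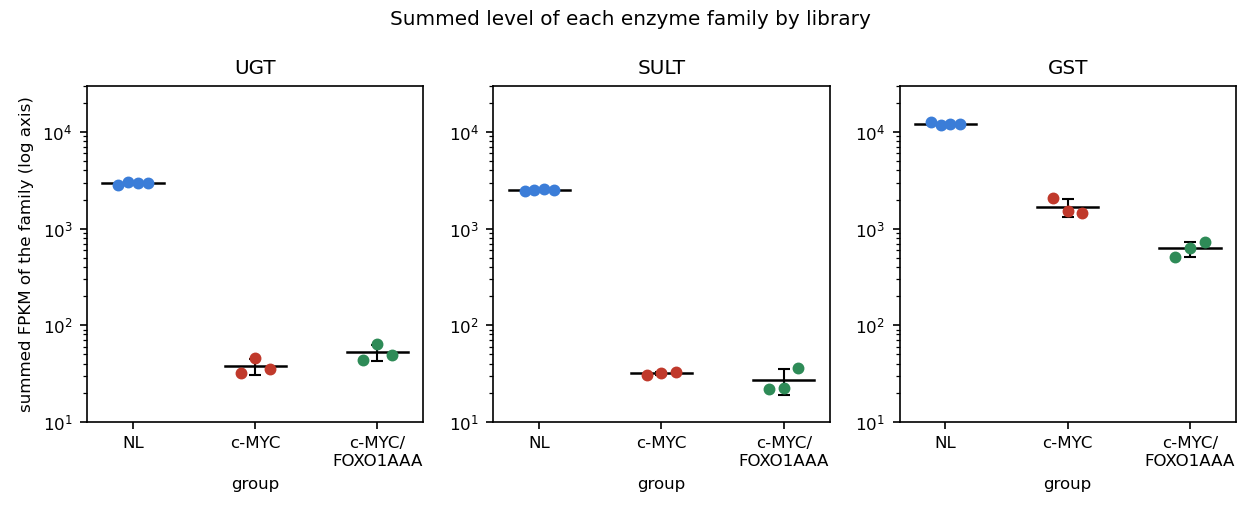
Summed FPKM of each family (log axis) in each library, by group. Points are libraries, and the line with its bar is the mean ± SD (n = 4 for NL, n = 3 for each tumor group). UGT and SULT sums of both tumor groups lie between 22 and 63.2 FPKM, against 2430 to 3050 FPKM in NL, and GST sums lie between 512 and 2070 FPKM in tumors, against 11800 to 12600 FPKM in NL.

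The first comparison asked how the enzymes differ between c-MYC tumors and normal liver. A gene was called with limma treat, which tests for a change beyond 1.5-fold, at an adjusted p (Benjamini-Hochberg over all 14017 genes tested) under 0.05. Of the 49 members 45 were tested, and Gsta1, Sult2a1, Sult2b1 and Ugt1a7c did not reach 1 FPKM in at least 3 libraries. Ugt1a1, Ugt1a5, Ugt1a10, Ugt2b37, Ugt2b38, Ugt3a1, Sult1b1 and Sult2a7 stayed under 1 FPKM in every tumor library. Sult1c2 and Ugt1a6a exceeded 1 FPKM in only 1 tumor library each (2.03 and 1.26 FPKM). All of these genes passed this filter only through NL, so a call against NL could in practice only be lower. Counts and medians against NL include them. In c-MYC tumors 37 of the 45 were lower than in NL, against 23.6% of all genes tested, and 1 was higher, against 24.5% of all genes. The remaining 7 were not called. With all libraries set to the same FPKM total, 7061 of all genes were higher and 1895 lower, in place of 3435 and 3305, and of the members 3 were higher and 36 lower. The median log2 fold change of the members was -4.42, against 0.08 for all genes tested.

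By family, 14 of 16 UGT, all 7 SULT and 16 of 22 GST genes tested were lower in c-MYC tumors than in NL. The median log2 fold change was -7.38 for UGT, -3.66 for SULT and -3.34 for GST genes. Subfamilies differed more than families did. The median was -8.15 for the 7 UGT2B, -8.01 for the 2 UGT3A and -3.80 for the 6 UGT1A genes tested, and within GST it was -4.50 for mu, -2.39 for theta and -0.80 for pi genes. These medians describe the lists and were not tested against each other.

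The second comparison asked what FOXO1AAA changed in tumors that all carried c-MYC. In c-MYC/FOXO1AAA tumors 13 members exceeded their level in c-MYC tumors, against 15.9% of all genes tested, 11 were lower, against 12.7% of all genes, and 21 were not called. Under quantile normalization 9 were higher and 15 lower. The median log2 fold change was 0.01, against 0.03 for all genes. The families split in direction, since 9 UGT genes were higher and 4 lower (median 1.87), 1 SULT gene was higher and 1 lower (median -0.55), and 3 GST genes were higher and 6 lower (median -0.45).

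The third comparison set c-MYC/FOXO1AAA tumors against normal liver. In it 42 members were lower, against 26.6% of all genes tested, 1 was higher, against 31.2% of all genes, and Gstm5 and Gsto1 were not called. With the same FPKM total, 8129 of all genes were higher and 2099 lower, in place of 4371 and 3728, and of the members 2 were higher and 41 lower. The median log2 fold change was -4.86, against 0.21 for all genes. All 13 members that were higher with FOXO1AAA than with c-MYC alone were thus still lower than in NL. The 3 comparisons share libraries pairwise and are not independent of each other.

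**Figure D2:**
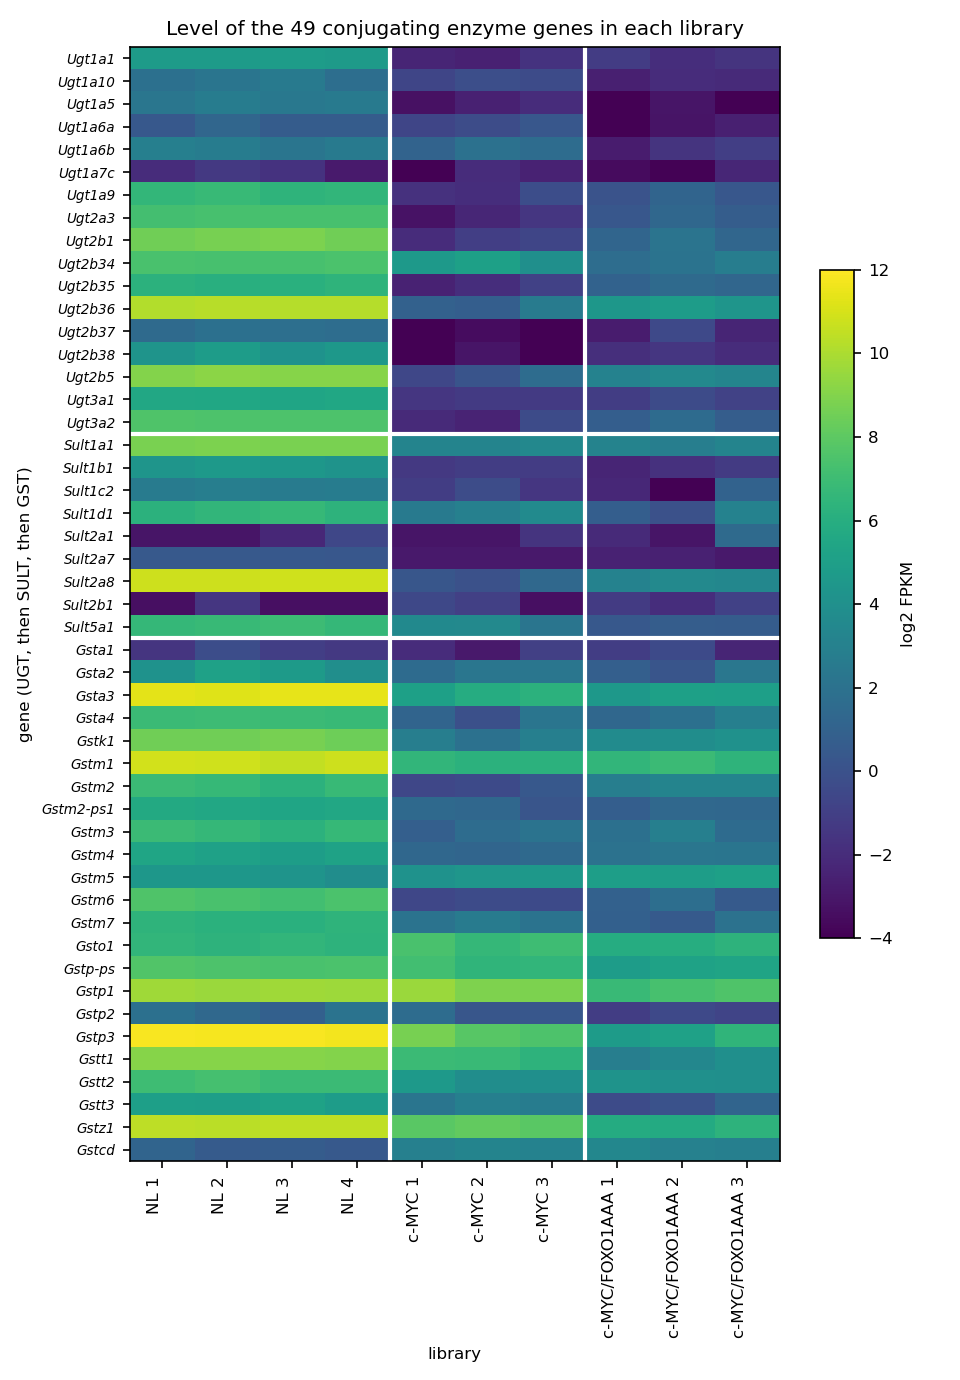
Heat map of log2 FPKM for the 49 members (rows, UGT at the top, SULT in the middle, GST at the bottom) in the 10 libraries (columns). Colors run from -4 to 12 on the log2 FPKM scale. Most rows are bright in the 4 NL libraries and dark in the 6 tumor libraries, and the rows of Gsto1, Gstm5 and Gstp1 keep a similar color from NL to c-MYC tumors.

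Among UGTs the UGT2B genes, which glucuronidate steroids, bile acids and many drugs, made up most of the normal liver signal. Ugt2b36 was the leading UGT in NL by the deposited FPKM, with 1160, 1230, 1180 and 1210 FPKM. It stood at 1.92, 1.73 and 6.42 FPKM in the c-MYC tumors and at 21.8, 29.2 and 20.5 FPKM in the c-MYC/FOXO1AAA tumors. Its rank rests on the transcript length behind the FPKM, since with the union of all annotated exons as length Ugt2b5 came first (25.8% of the UGT sum in NL) and Ugt2b36 second (20.9%). The 3 groups did not overlap, and the third c-MYC tumor was the highest of its group. The log2 fold change was -8.75 ± 0.38 (SE, adjusted p = 3e-08) from NL to c-MYC tumors and 3.09 ± 0.40 (SE, adjusted p = 0.000361) from c-MYC to c-MYC/FOXO1AAA tumors.

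Ugt2b5 behaved likewise. It gave 523, 587, 555 and 552 FPKM in NL, 0.650, 1.12 and 3.17 FPKM in c-MYC tumors, and 8.67, 11.7 and 9.78 FPKM in c-MYC/FOXO1AAA tumors, with a log2 fold change between the tumor groups of 2.91 ± 0.44 (SE, adjusted p = 0.00101). Ugt2b1 gave 371, 418, 461 and 378 FPKM in NL, 0.258, 0.479 and 0.638 FPKM in c-MYC tumors, and 2.30, 4.37 and 2.38 FPKM in c-MYC/FOXO1AAA tumors (log2 fold change between the tumor groups 2.75 ± 0.32, SE, adjusted p = 0.000209). Both genes kept the order NL above c-MYC/FOXO1AAA above c-MYC in all libraries. Ugt2b35 gave 77.3, 67.1, 72.1 and 84.6 FPKM in NL, 0.181, 0.272 and 0.538 FPKM in c-MYC tumors, and 2.04, 2.85 and 2.42 FPKM in c-MYC/FOXO1AAA tumors (log2 fold change 3.02 ± 0.32, SE, adjusted p = 7.86e-05).

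The remaining UGT2B genes of this kind were nearly silent in tumors. Ugt2b38 gave 19.8, 28.6, 18.1 and 22.9 FPKM in NL, 0.0626, 0.119 and 0.0626 FPKM in c-MYC tumors, where it rested on 0 to 2 reads per library, and 0.277, 0.364 and 0.251 FPKM (7 to 17 reads) in c-MYC/FOXO1AAA tumors. With 3 reads per library as the limit, it was at least 261-fold lower in c-MYC tumors than in NL. Of the 100-base stretches of its transcript, 24.2% occur in Ugt2b5, which had 354 to 644 reads in c-MYC/FOXO1AAA tumors. Some of the few Ugt2b38 reads there may thus come from Ugt2b5, which was not tested. Ugt2b37 rested on 0 to 1 read in c-MYC tumors and 4 to 37 reads in c-MYC/FOXO1AAA tumors, and was at least 39.4-fold lower in c-MYC tumors than in NL. The call of Ugt2b37 between the tumor groups (adjusted p = 0.0387) was lost under 11 of 21 other settings, with adjusted p from 0.00692 to 1, and that of Ugt2b38 (adjusted p = 0.00421) under 3 of 22.

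Ugt2b34 was the exception among the UGT2B genes. It gave 166, 160, 164 and 178 FPKM in NL, 23.7, 34.3 and 15.7 FPKM in c-MYC tumors, and 3.27, 4.23 and 6.92 FPKM in c-MYC/FOXO1AAA tumors. Its level thus dropped at both steps, by a log2 fold change of -2.83 ± 0.28 (SE, adjusted p = 2.78e-05) and then -2.35 ± 0.30 (SE, adjusted p = 0.000457). In c-MYC tumors Ugt2b34 alone supplied 65.1% ± 17.6 (SD, n = 3) of the summed UGT FPKM, against 5.65% ± 0.344 (SD, n = 4) in NL. The share was lower in the third c-MYC tumor, which held the lowest Ugt2b34 level and the highest Ugt2b36 level of its group. In c-MYC/FOXO1AAA tumors Ugt2b36 took 45.9% ± 3.89 (SD, n = 3), against 40.4% ± 0.505 (SD, n = 4) in NL. With the exon union as length Ugt2b34 still led in c-MYC tumors (73.0%), whereas Ugt2b5 led in c-MYC/FOXO1AAA tumors with 28.3%, ahead of Ugt2b36 with 25.2%.

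The 7 UGT2B genes of the table lie in 1 cluster on chromosome 5, together with Ugt2a3 (annotation GRCm38, GENCODE M21). Their start sites were compared because 6 of them were higher with FOXO1AAA than with c-MYC alone and 1 was lower. Of each promoter window the 120 bases before the start site that RefSeq gives are shown (GRCm38.p6), 5′ to 3′ on the strand of the gene, with the nuclear receptor half-site AGGTCA in capitals.
Ugt2b36 (chr5:87092556-87092675, minus strand): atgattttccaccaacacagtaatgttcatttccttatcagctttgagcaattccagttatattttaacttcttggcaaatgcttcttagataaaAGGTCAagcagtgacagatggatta
Ugt2b5 (chr5:87140341-87140460, minus strand): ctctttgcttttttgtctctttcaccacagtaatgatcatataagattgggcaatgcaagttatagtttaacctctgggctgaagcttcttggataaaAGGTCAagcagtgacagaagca
Ugt2b37 (chr5:87254789-87254908, minus strand): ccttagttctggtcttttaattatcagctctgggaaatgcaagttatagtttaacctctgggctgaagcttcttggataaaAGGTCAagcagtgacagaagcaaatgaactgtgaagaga
Ugt2b38 (chr5:87424204-87424323, minus strand): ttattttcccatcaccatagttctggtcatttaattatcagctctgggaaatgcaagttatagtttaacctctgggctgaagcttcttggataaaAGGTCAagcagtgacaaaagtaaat
Ugt2b35 (chr5:87000740-87000859, plus strand): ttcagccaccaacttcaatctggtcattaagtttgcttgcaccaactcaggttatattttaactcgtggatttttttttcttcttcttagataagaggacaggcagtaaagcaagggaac
Ugt2b1 (chr5:86926504-86926623, minus strand): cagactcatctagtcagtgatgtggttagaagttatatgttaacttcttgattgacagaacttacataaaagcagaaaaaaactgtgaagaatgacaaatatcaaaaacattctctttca
Ugt2b34 (chr5:86906938-86907057, minus strand): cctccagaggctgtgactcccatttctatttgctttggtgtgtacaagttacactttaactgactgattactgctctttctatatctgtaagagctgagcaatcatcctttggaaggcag

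AGGTCA began 25 bases before the start site in Ugt2b36 and Ugt2b38, 22 bases before it in Ugt2b5 and 39 bases before it in Ugt2b37. All 4 genes were higher with FOXO1AAA than with c-MYC alone. Ugt2b35, which was higher as well, held the letters only further out, 215 bases before its start site. Ugt2b1, higher as well, and Ugt2b34, lower, held none in their windows. Over windows of 300 bases (250 before and 50 after the start site, both strands), AGGTCA was present in 11 of the 41 members with a window, or 26.8%, against 18.1% of 27025 genes. Ugt2b36, Ugt2b37, Ugt2b38 and Ugt2b5 resemble each other in the stretch around AGGTCA, so their matches are not independent.

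Further motifs are given for the same windows and both strands. The core of the FOXO binding site, GTAAACA, was present in 4 members, or 9.76%, against 4.05% of all genes, and these were Ugt2b35, Ugt2b37, Ugt2b38 and Sult1d1. The former 3 were higher with FOXO1AAA than with c-MYC alone, and Sult1d1 was not called. Ugt2b37 and Ugt2b38 resemble each other in sequence, so their matches are not independent here either. Their calls between the tumor groups were lost under 11 of 21 and 3 of 22 other settings. The E-box CACGTG, the site c-MYC is known to bind, was in none of the 41 windows, against 8.09% of all genes. The core of the antioxidant response element, TGACNNNGC, was in 3 members (Gsta3, Gstm5 and Gstm7), or 7.32%, against 14%. A match is a description of the letters and not evidence of binding.

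Outside UGT2B, Ugt2a3 of the same cluster and Ugt3a2 on chromosome 15 moved as Ugt2b36 did. Ugt2a3 gave 152, 159, 161 and 160 FPKM in NL, 0.107, 0.206 and 0.365 FPKM in c-MYC tumors, and 1.26, 2.54 and 1.62 FPKM in c-MYC/FOXO1AAA tumors. Ugt3a2, which belongs to a subfamily that uses other sugar donors, gave 194, 185, 189 and 182 FPKM in NL, 0.238, 0.188 and 0.799 FPKM in c-MYC tumors, and 1.72, 3.06 and 1.67 FPKM in c-MYC/FOXO1AAA tumors. Between the tumor groups the log2 fold change was 3.11 ± 0.38 (SE, adjusted p = 0.000227) for Ugt2a3 and 2.65 ± 0.46 (SE, adjusted p = 0.00286) for Ugt3a2. Its paralog Ugt3a1 was at 1.32% of NL in c-MYC/FOXO1AAA tumors and 0.862% in c-MYC tumors, and was not called between them (adjusted p = 1).

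The UGT1A genes share their last exons and differ in the first, and 55.7% to 100% of the 100-base stretches of their transcripts occur in another gene, so that reads may be split between them and their single levels are uncertain. Ugt1a9, a phenol and drug conjugating form, gave 94.7, 109, 83.2 and 90.8 FPKM in NL, 0.303, 0.272 and 0.874 FPKM in c-MYC tumors, and 1.09, 2.24 and 1.29 FPKM in c-MYC/FOXO1AAA tumors (log2 fold change between the tumor groups 1.82 ± 0.41, SE, adjusted p = 0.0252). That call was lost under 8 of 22 other settings, without the first or second c-MYC tumor or the second c-MYC/FOXO1AAA tumor among them (adjusted p = 0.0925, 0.0976 and 0.0989). Ugt1a1, the bilirubin-conjugating enzyme, gave 26.9 to 28.5 FPKM in NL, 0.173 to 0.322 FPKM in c-MYC tumors and 0.264 to 0.455 FPKM in c-MYC/FOXO1AAA tumors, and the tumor groups overlapped.

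Ugt1a6a and Ugt1a6b, which conjugate small planar phenols, took another course. Ugt1a6b gave 7.42, 6.61, 4.61 and 5.75 FPKM in NL, 2.16, 3.85 and 3.10 FPKM in c-MYC tumors and 0.143, 0.335 and 0.483 FPKM in c-MYC/FOXO1AAA tumors. It was not called from NL to c-MYC tumors (adjusted p = 0.249) and was lower with FOXO1AAA (log2 fold change -3.37 ± 0.41, SE, adjusted p = 0.00017). Ugt1a6a likewise was not called in the first comparison (adjusted p = 0.358) and was lower in the second (log2 fold change -3.18 ± 0.45, SE, adjusted p = 0.000494). It rested on 0 to 5 reads per library in c-MYC/FOXO1AAA tumors, and its call was lost under 1 of 21 other settings. As a share of the UGT1A sum, Ugt1a6b went from 4.34% ± 0.719 (SD, n = 4) in NL to 52.7% ± 6.83 (SD, n = 3) in c-MYC tumors and was 11.5% ± 5.44 (SD, n = 3) in c-MYC/FOXO1AAA tumors, a description of levels that were not tested as shares. Ugt1a10 was lower at both steps, from 3.43 to 5.88 FPKM in NL to 6 to 10 reads per library in c-MYC tumors and 0 to 2 reads in c-MYC/FOXO1AAA tumors.

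Among SULTs, Sult2a8, a bile acid and steroid sulfotransferase of mouse liver, showed the deepest loss of all members tested. It gave 1780, 1790, 1850 and 1840 FPKM in NL, 1.19, 0.992 and 2.64 FPKM in c-MYC tumors and 8.64, 11.6 and 10.4 FPKM in c-MYC/FOXO1AAA tumors. The mean in c-MYC tumors was 0.0887% of NL and in c-MYC/FOXO1AAA tumors 0.562% of NL. The log2 fold change was -10.28 ± 0.27 (SE, adjusted p = 1.5e-09) at the first step and 2.79 ± 0.29 (SE, adjusted p = 8.97e-05) at the second.

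The other SULTs did not share the second step. Sult1a1, the main phenol sulfotransferase, gave 448, 464, 448 and 441 FPKM in NL, 9.31, 9.27 and 10.9 FPKM in c-MYC tumors and 9.03, 7.31 and 9.47 FPKM in c-MYC/FOXO1AAA tumors. The tumor groups overlapped (log2 fold change -0.20 ± 0.11, SE, adjusted p = 1). Sult5a1 gave 99.3, 111, 126 and 99.8 FPKM in NL, 12.3, 11.6 and 4.75 FPKM in c-MYC tumors and 1.32, 1.64 and 1.59 FPKM in c-MYC/FOXO1AAA tumors, and was lower at both steps (second step log2 fold change -2.54 ± 0.30, SE, adjusted p = 0.000271). By the deposited FPKM, Sult2a8 took 72.8% of the SULT sum in NL, and Sult1a1, Sult5a1 and Sult1d1 took 31.1%, 30.5% and 27.8% in c-MYC tumors. This order depends on gene length. With the exon union as length Sult1a1 came first in all 3 groups (45.6%, 43.9% and 54.7%), Sult2a8 took 39.3% in NL, and in c-MYC tumors Sult1d1 took 43.8% and Sult5a1 5.44%.

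A single library decided the values of several low SULT genes. Sult1d1, a sulfotransferase of catecholamines and other phenols, gave 78.0, 91.8, 106 and 82.0 FPKM in NL, 5.95, 7.77 and 12.8 FPKM in c-MYC tumors, and 1.74, 0.976 and 8.71 FPKM in c-MYC/FOXO1AAA tumors. It was not called between the tumor groups (adjusted p = 0.144) but was lower when the third c-MYC/FOXO1AAA tumor was left out (log2 fold change -2.69; adjusted p = 0.000378). The same tumor was the highest of its group for Sult1c2, with 2.03 FPKM against 0.218 and 0.0641 FPKM. It also held 56 reads of Sult2a1, a hydroxysteroid sulfotransferase, at 2.92 FPKM, where the highest of the other 9 libraries had 0.662 FPKM.

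**Figure D3:**
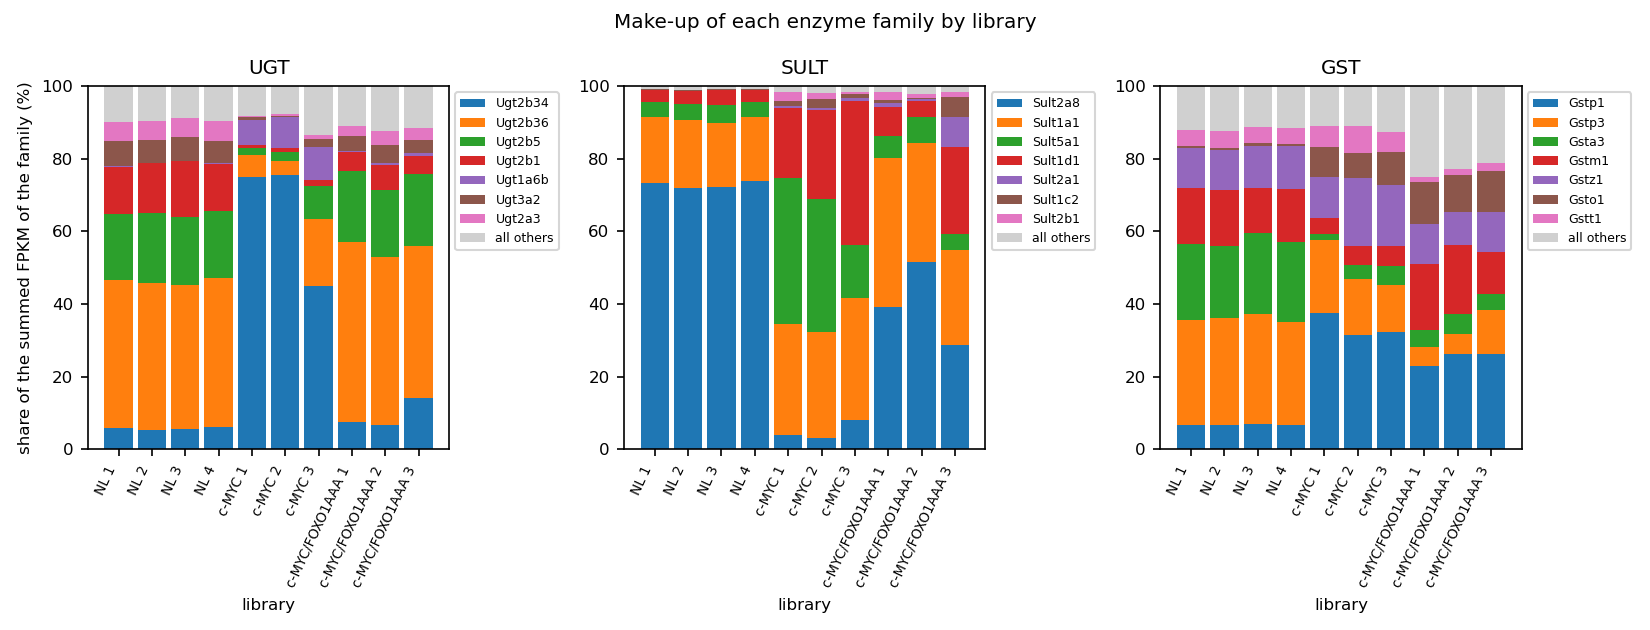
Share of each family's summed FPKM (y axis, in percent) taken by its 7 leading genes in each of the 10 libraries, with all others in grey. By the deposited FPKM, Ugt2b34 takes the largest share of the UGT sum in c-MYC tumors (mean 65.1%). UGT libraries from NL are mostly Ugt2b36, Ugt2b5 and Ugt2b1. Those from c-MYC/FOXO1AAA tumors are mostly Ugt2b36 and Ugt2b5, followed by Ugt2b34 (mean 9.4%) and Ugt2b1 (mean 5.66%). SULT libraries from NL are mostly Sult2a8, and Gstp1 takes the largest share of the GST libraries in both tumor groups.

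The GST family kept the most signal in c-MYC tumors, and the pi class carried it. With the exon union as length Gstp1 led the GST sum in c-MYC tumors (30.2%), but in c-MYC/FOXO1AAA tumors Gstm1 (23.9%) came before it (20.6%). Gstp1, the broad-range pi enzyme, gave 856, 788, 832 and 808 FPKM in NL, 776, 478 and 467 FPKM in c-MYC tumors, and 117, 164 and 191 FPKM in c-MYC/FOXO1AAA tumors. The second step was a log2 fold change of -1.85 ± 0.21 (SE, adjusted p = 0.0004), and the first step was not called (-0.56 ± 0.20, SE, adjusted p = 0.795). The sign of the first step depended on the scaling, since it was 0.37 when all libraries were set to the same FPKM total and 0.20 under quantile normalization. The pseudogene Gstp-ps, 51.1% of whose 100-base stretches match Gstp2, gave 201, 188, 166 and 178 FPKM in NL, 144, 87.7 and 94.2 FPKM in c-MYC tumors and 28.7, 37.2 and 40.6 FPKM in c-MYC/FOXO1AAA tumors, and its reads may come from other pi genes. For Gstp1 and Gstp2 themselves shared stretches were not counted, since their lengths equal no annotated transcript. Exchange of reads between them was therefore not assessed.

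Gstp3, by contrast, gave 3630, 3470, 3660 and 3430 FPKM in NL, the highest level of all members, 416, 234 and 184 FPKM in c-MYC tumors, and 27.0, 35.0 and 87.8 FPKM in c-MYC/FOXO1AAA tumors. It was lower at both steps, by a log2 fold change of -3.76 ± 0.38 (SE, adjusted p = 2.21e-05) and -2.59 ± 0.40 (SE, adjusted p = 0.00154). Within the pi class Gstp3 thus went from 77.9% ± 0.505 (SD, n = 4) of the summed FPKM in NL to 28.3% ± 3.30 (SD, n = 3) in c-MYC tumors, and Gstp1 from 18.0% ± 0.281 to 60.0% ± 2.33.

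Gstt1 and Gstt3 of the theta class and Gstz1 of the zeta class were lower at both steps as well. Gstt1, which acts on small halogenated compounds, gave 552, 541, 548 and 531 FPKM in NL, 121, 115 and 80.9 FPKM in c-MYC tumors, and 7.12, 10.6 and 15.4 FPKM in c-MYC/FOXO1AAA tumors (second step log2 fold change -3.31 ± 0.24, SE, adjusted p = 4.73e-06). Gstz1, the maleylacetoacetate isomerase of tyrosine breakdown, gave 1370, 1280, 1420 and 1410 FPKM in NL, 235, 286 and 243 FPKM in c-MYC tumors, and 56.4, 55.8 and 81.6 FPKM in c-MYC/FOXO1AAA tumors (second step -2.0 ± 0.15, SE, adjusted p = 1.44e-05). Gstt3 gave 32.9, 31.5, 36.6 and 28.3 FPKM in NL, 4.67, 7.57 and 6.55 FPKM in c-MYC tumors, and 0.775, 1.04 and 2.26 FPKM in c-MYC/FOXO1AAA tumors (second step -2.33 ± 0.34, SE, adjusted p = 0.00111). Gstt2 did not, at 13.4% and 12.7% of NL in the 2 tumor groups, and was not called between them (adjusted p = 1).

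The alpha and mu classes lost most of their signal with c-MYC alone. Gsta3, the leading alpha gene, gave 2610, 2360, 2710 and 2680 FPKM in NL, 34.1, 58.7 and 76.9 FPKM in c-MYC tumors and 23.5, 34.6 and 32.6 FPKM in c-MYC/FOXO1AAA tumors, with overlap between the tumor groups (adjusted p = 0.413). Without the first c-MYC tumor it was lower with FOXO1AAA (log2 fold change -1.17; adjusted p = 0.02). Gstm1, the leading mu gene, gave 1960, 1820, 1490 and 1770 FPKM in NL, 90.6, 79.0 and 76.9 FPKM in c-MYC tumors and 93.3, 119 and 84.4 FPKM in c-MYC/FOXO1AAA tumors, and the latter overlapped (adjusted p = 1).

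The GST genes that were higher with FOXO1AAA were Gstm2, Gstm6 and Gstk1. Gstm2 gave 121, 107, 79.3 and 111 FPKM in NL, 0.675, 0.760 and 1.34 FPKM in c-MYC tumors, and 7.09, 9.39 and 9.31 FPKM in c-MYC/FOXO1AAA tumors, the largest rise among the members between the tumor groups (log2 fold change 3.27 ± 0.25, SE, adjusted p = 6.62e-06). Gstk1, the kappa enzyme of mitochondria and peroxisomes, gave 363, 367, 413 and 361 FPKM in NL, 7.33, 3.89 and 7.50 FPKM in c-MYC tumors and 13.1, 14.3 and 16.8 FPKM in c-MYC/FOXO1AAA tumors (log2 fold change 1.29 ± 0.22, SE, adjusted p = 0.0176). Without the third c-MYC/FOXO1AAA tumor the adjusted p of Gstk1 was 0.0582. Gstm6 gave 197, 167, 141 and 178 FPKM in NL, 0.676, 0.800 and 0.770 FPKM in c-MYC tumors and 1.99, 3.44 and 1.44 FPKM in c-MYC/FOXO1AAA tumors (log2 fold change 1.52 ± 0.26, SE, adjusted p = 0.0105), and its call was lost under 4 of 22 other settings.

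Few members escaped the loss. Gstcd, whose enzymatic activity is unclear, gave 2.26, 1.49, 1.61 and 1.40 FPKM in NL, 7.86, 9.16 and 8.72 FPKM in c-MYC tumors and 10.4, 8.23 and 7.41 FPKM in c-MYC/FOXO1AAA tumors. It was the only member called higher than NL, with a log2 fold change of 2.37 ± 0.19 (SE, adjusted p = 7.82e-06) in c-MYC tumors and 2.37 ± 0.19 (SE, adjusted p = 4.93e-06) in c-MYC/FOXO1AAA tumors. Gsto1, the omega enzyme with thiol transferase activity, gave 79.7 to 93.6 FPKM in NL, 172, 101 and 131 FPKM in c-MYC tumors and 59.1, 63.3 and 81.4 FPKM in c-MYC/FOXO1AAA tumors, and was not called in any comparison. Gstm5 gave 14.6 to 22.5 FPKM in NL, 17.8 to 22.8 FPKM in c-MYC tumors and 30.6 to 34.6 FPKM in c-MYC/FOXO1AAA tumors, also with no call. When all libraries were set to the same FPKM total, which shifted the all-gene median of the c-MYC versus NL comparison from 0.08 to 1.01, Gsto1 and Gstm5 joined Gstcd among the genes higher in c-MYC tumors.

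Taking both steps, the 45 genes tested fell into few courses. 13 were lower in c-MYC tumors than in NL and higher again with FOXO1AAA, 7 were lower at both steps, 17 were lower at the first step and not called at the second, and 4 (Ugt1a6a, Ugt1a6b, Gstp1 and Gstp-ps) were not called at the first step and lower at the second. Gstm5, Gsto1 and Gstp2 were called at neither step, and Gstcd was higher at the first step and not called at the second. The 13 were at 0.0887% to 2.13% of NL in c-MYC tumors (median 0.364%) and at 0.562% to 10.5% in c-MYC/FOXO1AAA tumors (median 1.63%). The 7 were at 7.85% to 19.5% of NL in c-MYC tumors (median 17.3%) and at 1.39% to 4.95% in c-MYC/FOXO1AAA tumors (median 2.88%). These shares come from the values that define the courses and carry no test.

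Among the 13, the third c-MYC tumor was the highest of its group for 10 genes and the second c-MYC/FOXO1AAA tumor was the highest of its group for 12. Among the 7, the third c-MYC tumor was the highest for none. Both sets were chosen by calls on these same libraries. How often each tumor was the highest of its group over all genes was not counted, so these counts only describe the sets.

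**Figure D4:**
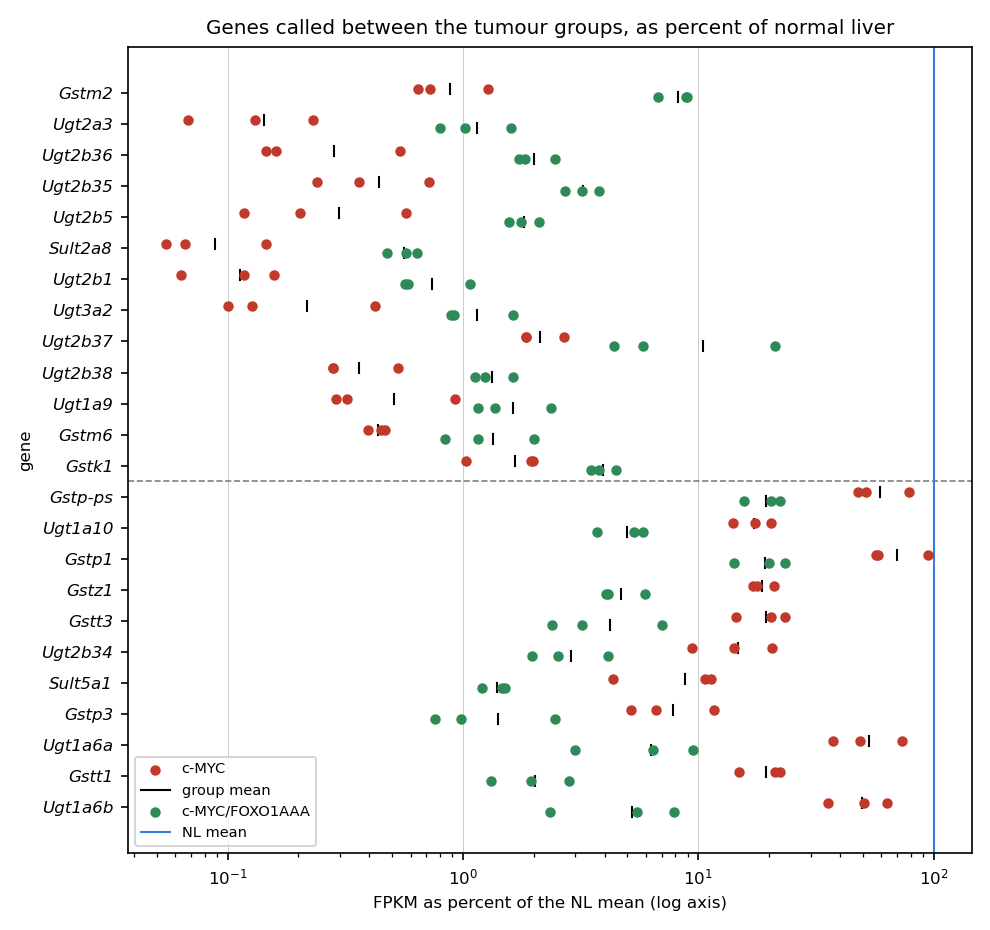
FPKM as percent of the NL mean (log axis) for the 24 members called between the tumor groups, those higher with FOXO1AAA above the dashed line and those lower below it. Points are the 3 libraries of each tumor group and ticks are group means. The upper genes have mean values from 0.0887% to 2.13% in c-MYC tumors, and with FOXO1AAA most genes of both kinds lie between 0.562% and 10.5%.

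Other genes were set beside these values. The 1334 genes of at least 100 FPKM in NL were not chosen by cell type and include the members. For them the share of the NL level that was left had a median of 44.6% in c-MYC tumors and 26.2% in c-MYC/FOXO1AAA tumors. Its 5th percentile was 0.288% and 1.08%. The 22 members of at least 100 FPKM in NL had medians of 2.19% and 2.02%, with the middle of the range (25th to 75th percentile) at 0.332% to 12.3% in c-MYC tumors and at 1.35% to 4.71% in c-MYC/FOXO1AAA tumors. Of 11 pericentral hepatocyte genes, 11 were lower in c-MYC tumors than in NL and 6 were higher with FOXO1AAA, with a median of 1.01% and 2.76% of NL left. Of 12 genes known to be male-predominant in mouse liver, 11 were lower at the first step and 7 were higher at the second, with a median of 0.610% and 2.01% of NL left. Female-predominant genes went another way, since of 7 tested 2 were higher and 2 lower at the first step (median log2 fold change 0.03), and none was higher and 4 were lower at the second (median -4.41). Y-linked genes were present in every library, with sums of 74.1 to 76.6 FPKM in NL, 52.9 to 72.6 FPKM in c-MYC tumors and 35.8 to 55.5 FPKM in c-MYC/FOXO1AAA tumors. The part of these changes in the levels of the conjugating enzymes was not tested.

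Of 10 periportal genes, by contrast, 9 were lower and 1 was higher at the first step. At the second step 8 were lower and 2 were higher, and a median of 10.7% and 1.61% of NL was left in the 2 tumor groups. Hepatocyte markers were lower for 8 of 9 at the first step and, at the second, lower for 6 and higher for 1 (Apoc3). A median of 7.92% of their NL level was left in c-MYC tumors and 1.57% in c-MYC/FOXO1AAA tumors.

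Of 16 genes of the supply and turnover of the donors of conjugation, 8 were lower in c-MYC tumors than in NL and none was higher. Papss2, which makes PAPS, showed the largest change, from 84.3 FPKM to 0.638 FPKM (mean of the group), Ugp2, which makes UDP-glucose, went from 870 to 74.3 FPKM, and Gclc, the catalytic subunit of glutamate-cysteine ligase, from 80.8 to 17.9 FPKM. With FOXO1AAA 5 were lower than in c-MYC tumors, among them Gclm, the modifier subunit of that ligase (31.6 to 8.47 FPKM), Cbs of transsulfuration (69.9 to 20.1 FPKM) and Gss, glutathione synthetase (58.7 to 18.6 FPKM), and 1, Impad1, was higher.

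Of 21 other transferases of the conjugation step tested, 13 were lower in c-MYC tumors and 4 higher. Glyat, the glycine conjugating enzyme, went from 117 to 0.241 FPKM, Inmt, an amine methyltransferase, from 1770 to 3.63 FPKM, and Acsm1, an acyl-CoA synthetase, from 409 to 2.45 FPKM. The microsomal glutathione transferases are named for their kinship in function with the GST genes. Mgst1 went from 7310 to 319 FPKM, while Mgst2 went from 1.22 to 29.6 FPKM and Mgst3 from 26.5 to 108 FPKM, and Mgst3 dropped to 9.01 FPKM with FOXO1AAA. Of 7 deconjugating enzymes tested, 3 were higher and 2 lower in c-MYC tumors, and Ggt1, which degrades glutathione conjugates, rose from 5.62 to 129 FPKM and dropped to 3.20 FPKM with FOXO1AAA.

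Transcription factors known to regulate these enzymes were lower for 15 of 23 at the first step and for 11 at the second, and none was higher at either step. The xenobiotic receptors were low in both tumor groups. Nr1i3 (CAR) was at 28.9 FPKM in NL, 1.36 in c-MYC and 0.377 FPKM in c-MYC/FOXO1AAA tumors, and Nr1i2 (PXR) was at 42.9, 7.74 and 1.58 FPKM in the same order. Hnf4a (183, 94.4 and 7.17 FPKM) was not called from NL to c-MYC tumors and was lower with FOXO1AAA (adjusted p = 3.13e-06). The other 12 factors were not called between the tumor groups, and of these Bcl6, Foxa1, Nfe2l2 and Cebpb had higher means with FOXO1AAA (1.31 against 0.685, 4.67 against 2.39, 24.8 against 18.8 and 64.1 against 58.4 FPKM). The Foxa1 mean in c-MYC tumors came mostly from the first tumor (6.88 FPKM, against 0.0537 and 0.225 FPKM). That tumor lay above all c-MYC/FOXO1AAA libraries (3.97 to 5.45 FPKM).

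The remaining lists of the pathway went in both directions. Of 15 NRF2 target genes tested outside the GST family, 3 were higher and 8 lower at the first step, and 4 were higher and 2 lower at the second, among them Ephx1, microsomal epoxide hydrolase (222, 5.50 and 28.7 FPKM in NL, c-MYC and c-MYC/FOXO1AAA). Of 10 efflux transporters of conjugates, 4 were higher and 5 lower at the first step. The canalicular transporter Abcc2 went from 64.9 to 7.15 and 1.45 FPKM, while Abcc5 went from 5.0 to 53.3 and 32.4 FPKM.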

How the data were processed

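Poly(A) or rRNA-depleted RNA of 4 normal livers and 6 tumors had been sequenced. The authors deposited a table of log2 FPKM values (genome GRCm38; FastQC 0.11.7 in the submitters' processing notes; aligner and counter not given in the sources used here), whose values carry a prior count of 2. Whole reads were recovered for 99.89% of genes, with scaling factors of 0.6486 to 0.6838 in NL, 1.2561 to 1.2946 in c-MYC and 1.4537 to 1.5021 in c-MYC/FOXO1AAA, so levels between groups rest on this scaling. Reads served to give depth, not to test. Of 17069 entries 372 without a symbol were left out.

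Genes of at least 1 FPKM in at least 3 libraries were tested with limma 3.58.1 (R 4.3.3), treat with trend and robust variance, fold 1.5, over all 10 libraries, and the procedure was tested on simulated data. The deposited log2 values were used as they were. A lower bound was computed at 3 reads per library and covers counting error only. Sequences came from RefSeq. A further motif and a further factor are not reported here. Values in every library are given for the leading 4 genes of each family and for genes of at least 5 FPKM called between the tumor groups (up to 8 in each direction), in opposite directions at the 2 steps, or higher in c-MYC than in NL. Other genes were named for their role after their values were seen. Members and lists were chosen with earlier results of these data known. Alternatives were pseudocounts, filters, scalings, folds, left-out libraries and a replicate block.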

Additional observations from a re-analysis of the deposited data

Results flagged for a closer look

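In each of the 52 sets of 4 NL values (49 genes and 3 family sums), the highest and lowest library was set against the others with Dixon's criterion, which flags about 1 in 20 sets by chance. It singled out 2. Gstk1 was at 413 FPKM in the third NL library, against 361 to 367 FPKM in the others. Sult2b1 was at 0.366 FPKM in the second NL library, against 0.0993 FPKM, the value of 0 reads, in the others, and was too low to be tested.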

How the results depend on the processing

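Of 75 fold changes of the members that meet the rule for values in every library, 66 kept their direction and their side of the threshold under all 22 alternatives. Of the 68 that were called, none reversed and 4 (Gstk1, Gstm6, Ugt1a9 and Ugt2b38, all between the tumor groups) lost the call under at least 1. Among the other members, calls between the tumor groups were lost for Ugt2b37 (11 of 21 settings), Ugt1a10 (2 of 21) and Ugt1a6a (1 of 21). With the same FPKM total, Gsta2 lost its call in c-MYC versus NL, and Gstp2 in c-MYC/FOXO1AAA versus NL. Sign changes were confined, among the members that meet the rule, to fold changes that were not called. Gstp1 in c-MYC versus NL was 0.37 with the same FPKM total and 0.20 under quantile normalization, Gstp-ps was 0.14 with the same FPKM total, and Gstcd between the tumor groups was -0.08 with equal medians, -0.05 under quantile normalization, and -0.13 to 0.11 when 1 library was left out. The cause was not tested.

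Members higher in c-MYC than in NL numbered 3 with the same FPKM total, 2 under quantile normalization and 2 with no fold threshold. Members higher in c-MYC/FOXO1AAA than in NL numbered 2 under each of these settings. Members that dropped with FOXO1AAA relative to c-MYC alone numbered 17 with no fold threshold, which asks for less. With 1 library left out, the counts were 37 to 38 lower in c-MYC than NL, 11 to 13 higher and 11 to 15 lower with FOXO1AAA than with c-MYC alone, and 42 lower in c-MYC/FOXO1AAA than NL each time. The replicate numbers did not pair the libraries (correlations of deviations from -0.04 to 0.027), and with the replicate block 12 members were higher and 11 lower between the tumor groups.

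Family sums depend on the scale. As percent of NL, UGT was 1.26 in c-MYC tumors by FPKM, 2.41 with the same FPKM total and 4.59 by reads per 1000000, and GST was 13.8, 26.2 and 24.8. In c-MYC/FOXO1AAA tumors UGT was 1.76, 3.77 and 3.73, so that by reads the UGT sum was lower there than in c-MYC tumors. Shares within a family depend on gene length. The union of all annotated exons as length (chosen after seeing the data) changed the leading gene of UGT and SULT in NL and of all 3 families in c-MYC/FOXO1AAA tumors, as given with those genes. Depth limits Ugt2b37, Ugt2b38, Ugt1a5, Ugt1a10 and Sult2a7, which had 10 reads or fewer in every c-MYC library. Leaving out the 2 pseudogenes gave 36 lower members for c-MYC against NL, 10 for FOXO1AAA against c-MYC alone, and 40 for c-MYC/FOXO1AAA against NL.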
